A study of Mus musculus with 8 samples.

Results

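The genes described here are 45 genes of mitosis and chromosome segregation, compared between granulocyte-macrophage progenitors (GMP) of Ssb1 and Ssb2 double knockout mice and wild-type GMP. The members were taken by platform gene symbol: 39 of the 45 had at least 1 probe on the array, 59 probes in all of the 25697 in the table, and Aurkb, Ccnb1, Cenpf, Ncapg, Racgap1 and Smc4 were not analysed here. GMP are bone marrow progenitors of granulocytes and monocytes, sorted as cells low for lineage markers, positive for c-Kit and negative for Sca-1, with high CD34 and high CD16/32. The double knockout group (DKO) had 4 samples from SSB1 SSB2 KO mice and the control group 4 samples from WT mice, and each was read on an Illumina MouseRef-8 v2.0 BeadArray in a single colour. All 8 samples came from female C57BL/6 mice. Nabp2 encodes Ssb1 and Nabp1 encodes Ssb2, a pair of proteins that bind single-stranded DNA. How and in which cells the genes were deleted, the age of the mice, any treatment to induce the deletion and whether each sample was a separate mouse are not given in the labels used here. The p-values therefore rest on the spread among these samples alone, and that spread may be technical.

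Entry into mitosis is driven by Cdk1 bound to A-type and B-type cyclins, after Cdc25 phosphatases remove its inhibitory phosphates. Aurora and Polo-like kinases then build the spindle, condensins and topoisomerase II compact and untangle the chromosomes, and kinetochores attach them to microtubules under the watch of the spindle checkpoint. Once that checkpoint is satisfied, Cdc20 activates the anaphase promoting complex, which marks securin (Pttg1) and cyclin B for destruction, frees separase (Espl1) and lets the cell divide. Many of these transcripts peak in G2 and M phase, and GMP are a cycling population. In bulk samples such as these, fewer cells in mitosis and less RNA per mitotic cell cannot be told apart.

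Intensities were background-corrected and quantile-normalized, and every level below is a normalized log2 intensity of 1 probe. A probe was tested where it was detected, with a detection p-value below 0.05, on 4 or more of the 8 arrays, which held for 43 of the 59 member probes and for 31 of the 45 genes. Ect2, Kif20a, Cenpe, Nuf2, Smc2, Ccnb2, Nek2 and Bub1 had a probe but none that was tested: that of Kif20a, a cytokinesis motor, was detected on 0 DKO and 2 control arrays, and those of the other 7 genes on 0 of the 8 arrays. The other 8 untested probes belonged to Anln, Cdc25c, Cdk1, Ndc80 and Nusap1, each of which had another probe that was tested. Differences are DKO minus control with the moderated standard error (SE), and a probe was called where the limma p adjusted over all 10856 tested probes was under 0.05. The DKO arrays detected 9774 to 11103 probes and the control arrays 10740 to 11227, and DKO 1, with a mean raw intensity of 380, was the dimmest array against 547 to 622 for the other DKO arrays and 605 to 736 for the control arrays. Exact two-sided permutation tests of these 2 array measures each gave p = 0.114 (adjusted 0.114, n = 4 per group), where 0.0286 is the smallest p that the design allows.

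The labels were checked on the deleted genes and on cell type markers. The brighter Nabp2 probe read 7.27, 7.43, 6.42 and 7.45 on the DKO arrays, against 8.96, 9.09, 8.13 and 9.10 on the control arrays. The groups did not overlap and differed by -1.68 in limma (SE 0.27, adjusted p = 0.00198), while the dimmer one differed by -0.41 (adjusted p = 0.355) and no array detected the Nabp1 probe. Where these probes lie relative to the deleted parts is not known here, and the undetected Nabp1 probe checks nothing. All 9 GMP marker genes on the array were tested, and by brightest probe Cd34 and Csf2ra fell and 0 rose. The lowest log2 difference of the list was -1.42. Over its 13 tested probes 1 was higher and 4 were lower, the lower ones from 3 genes. The summed linear signal of the list was 122775 to 128890 on the DKO arrays and 130385 to 141596 on the control arrays. Some markers of other lineages were detected on 0 of the 8 arrays. They were Cd3e, Cd3g, Cd8a and Ncr1 (4 of the 7 T and NK genes on the array) and Pax5 and Ms4a1 (2 of 6 B cell genes). Gata1 and Alas2 (2 of 7 erythroid genes) were likewise undetected. The other genes of these lists on the array were each detected on 1 or more arrays. The summed signals of several lists moved with the groups. Of the 7 late neutrophil genes tested 3 were higher, with 4 differences above 0 and 3 below 0 (lowest -0.40) by brightest probe. The summed linear signal of the late neutrophil list was 43327 to 59057 on the DKO arrays and 36108 to 40126 on the control arrays. All 7 monocyte, macrophage and dendritic genes tested were lower, with a summed signal of 885 to 1413 on the DKO arrays and 4549 to 6423 on the control arrays, and Ccr2 and Itgax detected on no array. The summed signal was also lower in DKO, with no overlap, for the T and NK list (8289 to 11527 on the DKO arrays and 14384 to 16563 on the control arrays, Nkg7 being its 1 tested gene and lower), the B cell list (1024 to 1265 and 1776 to 2411, with Cd79b lower of 2 tested) and the stem cell list (552 to 2104 and 2442 to 3106, with Cd27 lower of 3 tested). For the erythroid list it was 132 to 556 on the DKO arrays and 517 to 1037 on the control arrays, ranges that overlap, with Slc4a1 and Epor lower of 5 tested and all 5 differences below 0. Their part in the results below was not tested.

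Most of the mitosis genes differed little between DKO and control GMP. By its brightest tested probe, Pttg1, Aurka and Plk1 rose, Cdc25b and Nusap1 fell, and 26 of the 31 tested genes did not pass, so that 5 genes, 16.1%, were called, against 24.3% of all 7604 named genes tested. Counted over all their probes, 6 member probes rose and 2 fell, 18.6% of 43, where 22.7% of all tested probes were called, 10.4% higher and 12.4% lower. Without control 2, 3 member probes rose and 2 fell, 11.6%, against 14.0% of all probes tested there. Dimmer probes of Cdc20 and Cdc25c added these genes to those with a probe that rose, while their brightest probes did not pass. The median log2 difference of the 31 genes was 0.04, with 17 above 0 and 14 below, beside a median of -0.03 over all tested genes. The median size of the difference was 0.20 for the members and 0.28 for all tested genes. The share called was thus near or below that of the whole array, and is no result about these genes as a group. With arrays aligned by medians instead of quantiles, the median difference over all tested probes was -0.40, and 5.96% of all calls were higher, against 45.6% as reported. In that setting 1.36% of all probes were called higher and 21.5% lower, and of the member probes 1 was higher and 3 were lower.

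For the genes that did not pass, the intervals of the quantile-normalized values limit how far they could have moved. Of the 26, 25 had a 95% interval of the difference that lay within 2-fold in either direction, and 17 within 1.5-fold. The exception at 2-fold was Spc24. Counting called genes too, 93.5% of members had an interval inside 2-fold, against 79.3% of all tested genes. The intervals are those of single genes, with no adjustment for their number. They hold for quantile normalization only. With arrays aligned by medians, the median difference over all tested probes was -0.40 and that of Kif23 was -0.72, and intervals were not counted there. The probes of Ttk and Ube2c were each detected on 3 of 4 DKO arrays, and dim probes limit the size of a change.

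**Figure D1:**
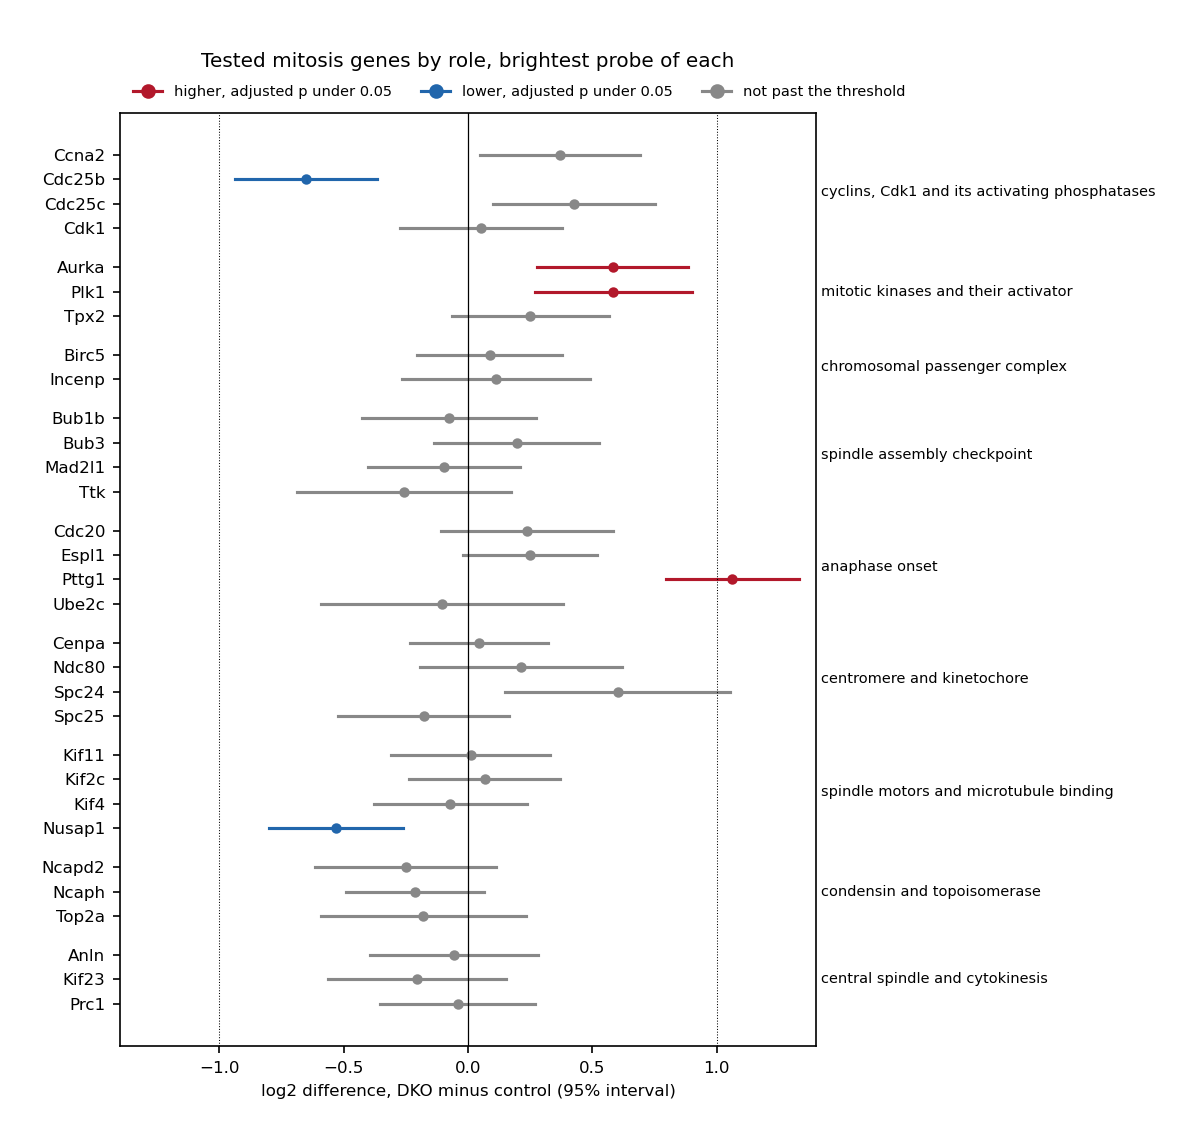
Log2 difference, DKO minus control (x axis), for the brightest tested probe of each of the 31 mitosis genes, grouped by role down the page. Points are limma estimates from 4 DKO and 4 control arrays and bars are 95% intervals, red for genes that rose, blue for genes that fell and grey for the 26 not past the threshold. Pttg1 is the only point beyond the dotted 2-fold line, and Aurka, Plk1, Cdc25b and Nusap1 lie between the dotted lines.

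Among the regulators of Cdk1, changes went both ways and stayed under 2-fold. Cdc25b, a phosphatase that activates Cdk1 at mitotic entry, read 5.17, 5.02, 5.12 and 4.77 on the DKO arrays, against 5.61, 5.74, 5.74 and 5.60 on the control arrays. All DKO values lay below all control values, and Cdc25b fell 1.57-fold (limma log2 difference -0.65, SE 0.13, adjusted p = 0.00538). The probe was detected on 1 of 4 DKO and 4 of 4 control arrays, so it entered the test through the group where it is higher, and the call was lost with no background correction (difference -0.18, adjusted p = 0.0733) and in the authors' processed values (-0.16, adjusted p = 0.0839). Its paralog Cdc25c went the other way on both of its tested probes. ILMN_2637704 read 7.84, 7.60, 7.79 and 7.82 on the DKO arrays, against 7.34, 7.16, 7.30 and 7.55 on the control arrays. The groups did not overlap, and this probe rose 1.35-fold (limma difference 0.43, SE 0.13, adjusted p = 0.0367). The brightest Cdc25c probe read 7.73, 7.81, 7.92 and 8.19 on the DKO arrays, against 7.42, 7.39, 7.38 and 7.76 on the control arrays. There DKO 1 lay below control 4, and the difference of 0.43 (SE 0.15) stayed just outside the threshold at an adjusted p of 0.0609, and passed in 6 of 19 alternative settings. The call of ILMN_2637704 was lost when DKO 1, DKO 3 or DKO 4 was left out, and likewise for control 1, 2 or 3 (adjusted p from 0.058 to 0.121), and its difference turned to -0.11 (adjusted p = 0.805) with arrays aligned by medians. Ccna2, the cyclin that partners Cdk2 in S phase and Cdk1 in G2, read 6.29, 5.86, 6.23 and 6.20 on the DKO arrays and 5.53, 5.80, 5.82 and 5.95 on the control arrays, groups that overlap. Its difference was 0.37 (SE 0.15, adjusted p = 0.0900). Cdk1 itself, the kinase that all of these act on, averaged 10.40 ± 0.18 on the DKO arrays and 10.35 ± 0.20 on the control arrays, a difference of 0.05 with a 95% interval from -0.27 to 0.38.

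The mitotic kinases Aurka and Plk1 both rose, by similar amounts. Aurka, the centrosomal Aurora kinase that matures the spindle poles, read 10.67, 10.77, 10.71 and 10.92 on the DKO arrays, against 10.09, 10.10, 10.07 and 10.49 on the control arrays. Every DKO value lay above every control value, with control 4 standing nearest to the DKO group. Aurka rose 1.5-fold (limma log2 difference 0.58, SE 0.14, adjusted p = 0.0130). Plk1, the Polo-like kinase that acts from mitotic entry to cytokinesis, read 11.31, 11.14, 11.06 and 11.36 on the DKO arrays, against 10.41, 10.50, 10.86 and 10.75 on the control arrays. Again the groups did not overlap, and Plk1 rose 1.5-fold (limma difference 0.58, SE 0.14, adjusted p = 0.0153). Plk1 missed the threshold without control 1 (adjusted p = 0.0516) or control 2 (0.0539). With arrays aligned by medians, Aurka differed by 0.18 and Plk1 by 0.22, neither past the threshold, and relative to the median of all probes in that setting the differences were 0.58 and 0.63. Tpx2, the microtubule protein that activates Aurka on the spindle, differed by 0.25 (SE 0.14, adjusted p = 0.230) and did not pass.

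Among the genes of anaphase onset, Pttg1 rose, and Cdc20 rose on some of its probes. Pttg1, which encodes securin, the inhibitor of separase, read 6.02, 6.03, 6.14 and 5.99 on the DKO arrays, against 4.82, 5.14, 4.96 and 4.99 on the control arrays. The DKO values were tightly grouped and stood well clear of the control values, and Pttg1 rose 2.09-fold (limma log2 difference 1.06, SE 0.12, adjusted p = 0.000275). Its probe was detected on 4 of 4 DKO arrays and on 1 of 4 control arrays, so it too was tested because of the group where it is higher. The size of the difference depended on the background correction. It was 0.31 with none, 0.51 with normexp run without the detection p-values and 0.28 in the authors' processed values. The adjusted p stayed under 0.05 in these 3 settings, at 0.00621, 0.00195 and 0.00803. Relative to the median of all probes it was 1.19 with arrays aligned by medians. Without DKO 1 and DKO 2 together the probe was not tested, since it was then detected on too few arrays.

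Cdc20, the activator of the anaphase promoting complex at the metaphase to anaphase step, was measured by 4 probes that did not give the same answer. ILMN_2867901 read 9.78, 9.72, 9.54 and 9.78 on the DKO arrays, against 8.56, 8.52, 9.15 and 8.92 on the control arrays, and ILMN_2698767 read 7.26, 7.56, 7.43 and 7.77 on the DKO arrays, against 6.96, 6.86, 7.12 and 6.88 on the control arrays. On these 2 probes the groups did not overlap, and Cdc20 rose 1.89-fold (limma difference 0.92, SE 0.16, adjusted p = 0.00288) and 1.46-fold (difference 0.55, SE 0.14, adjusted p = 0.0186). ILMN_2612206 differed by 0.44 (SE 0.15, adjusted p = 0.0617) and the brightest probe, ILMN_2867899, by 0.24 (SE 0.16, adjusted p = 0.302), neither past the threshold. The first of these passed in 7 of 19 alternative settings and the brightest in 0. All 4 differences were above 0, although that of the brightest probe was -0.08 with arrays aligned by medians. Both called probes lost their call there, with differences of 0.41 and 0.02, and ILMN_2698767 also lost it without control 2 (adjusted p = 0.0641) or control 4 (0.0514). Which transcripts or exons the 4 probes match is not known here. Espl1, which encodes separase, the protease that cuts cohesin, read 8.31, 8.38, 8.19 and 8.30 on the DKO arrays, against 8.04, 7.88, 8.08 and 8.20 on the control arrays. The groups overlapped by DKO 3 and control 4 alone, and the difference of 0.25 (SE 0.12, adjusted p = 0.167) did not pass. Ube2c, the ubiquitin-conjugating enzyme that works with the complex, differed by -0.10 (SE 0.22, adjusted p = 0.765).

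**Figure D2:**
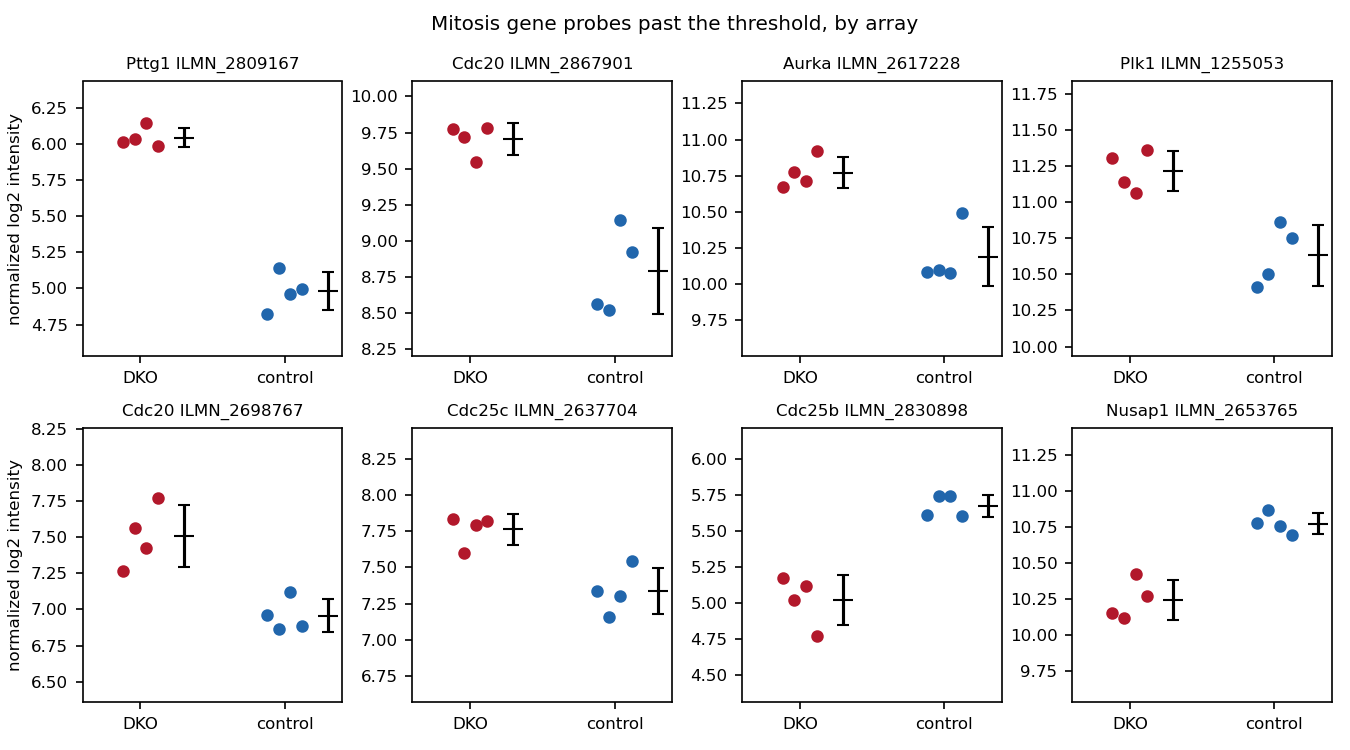
Normalized log2 intensity (y axis, each panel spanning the same range) on each of the 4 DKO arrays (red, left) and 4 control arrays (blue, right) for the 8 mitosis probes past the threshold, with the group mean and SD in black. In every panel the groups do not overlap, with DKO above control for Pttg1, Cdc20, Aurka, Plk1 and Cdc25c and below it for Cdc25b and Nusap1.

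In all, 10 of the 43 member probes separated the groups without overlap, 23.3%, where 27.6% of all tested probes did so. They were the 8 called probes, the brighter Spc24 probe and the Ncaph probe.

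The promoters of the called genes are shown because the members that rose include genes of the class whose G2 and M phase expression is tied to a pair of elements, the CCAAT box and the cell cycle homology region. The sequences are the 150 bases before the RefSeq start of each gene in build GRCm38.p6, read 5′ to 3′ on the gene's strand, with the motifs in capitals. The motifs searched were the core of the homology region in its form TTTGAA, its variant form TTCGAA, which reads the same on both strands, and the box CCAAT. Both strands were searched, so that a box on the reverse strand appears as ATTGG. Each motif was counted on its own, whether or not it overlapped another. Cdc25c had no entry among the promoters used here.
Aurka, rose, chr2:172370571-172370720, minus strand: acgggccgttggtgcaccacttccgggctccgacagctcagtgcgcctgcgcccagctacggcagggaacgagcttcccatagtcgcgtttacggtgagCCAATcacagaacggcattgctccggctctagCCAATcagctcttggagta
Plk1, rose, chr7:122159285-122159434, plus strand: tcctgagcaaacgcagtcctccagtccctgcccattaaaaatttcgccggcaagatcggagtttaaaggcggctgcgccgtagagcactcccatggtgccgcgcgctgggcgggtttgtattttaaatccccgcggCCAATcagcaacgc
Cdc20, rose, chr4:118437344-118437493, minus strand: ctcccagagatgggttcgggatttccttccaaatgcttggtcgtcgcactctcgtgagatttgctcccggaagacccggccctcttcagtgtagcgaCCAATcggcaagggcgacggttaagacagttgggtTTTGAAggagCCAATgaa
Pttg1, rose, chr11:43425982-43426131, minus strand: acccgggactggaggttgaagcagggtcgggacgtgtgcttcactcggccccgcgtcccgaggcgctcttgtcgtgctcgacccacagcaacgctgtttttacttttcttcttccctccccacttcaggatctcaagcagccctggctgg
Cdc25b, fell, chr2:131186798-131186947, plus strand: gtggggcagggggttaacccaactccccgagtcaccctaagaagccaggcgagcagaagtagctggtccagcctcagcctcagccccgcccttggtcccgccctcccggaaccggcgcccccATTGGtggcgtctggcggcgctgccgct
Nusap1, fell, chr2:119618148-119618297, plus strand: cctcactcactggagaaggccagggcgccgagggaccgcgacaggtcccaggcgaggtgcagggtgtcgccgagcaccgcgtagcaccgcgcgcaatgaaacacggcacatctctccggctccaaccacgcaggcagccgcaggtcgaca

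In windows from 250 bases before to 50 after the start, TTTGAA on either strand was present in 26 of the 37 members with a promoter sequence, 70.3%, against 20.2% of the 27025 genes with one. TTCGAA was present in 4 of 37, 10.8%, against 1.80%, and CCAAT in 28 of 37, 75.7%, against 41.1%. Aurka, Plk1 and Cdc20 held both TTTGAA and CCAAT, with the TTTGAA of Aurka and Plk1 in the 50 bases after the start and so outside the stretch shown. Cdc25b held CCAAT and TTCGAA, its TTCGAA likewise after the start and outside the stretch shown. Pttg1 and Nusap1 held none of the 3 in their windows. Members that did not pass, such as Cdk1, Kif11, Top2a, Cenpa and Prc1, held TTTGAA and CCAAT as well. These matches describe the letters only, and the array does not measure binding to them.

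Among the spindle motors and microtubule binders, Nusap1 fell and the motors did not pass. Nusap1, which bundles spindle microtubules near the chromosomes, read 10.16, 10.12, 10.43 and 10.27 on the DKO arrays, against 10.78, 10.87, 10.76 and 10.69 on the control arrays. No DKO value reached the control range, and Nusap1 fell 1.44-fold (limma log2 difference -0.53, SE 0.12, adjusted p = 0.0115). Its difference stayed between -0.94 and -0.42 in all 19 alternative settings, and the call was lost in 2 of them, without DKO 1 and DKO 2 together (-0.42, adjusted p = 0.0563) and with a minimum change of 1.5-fold. Its other 2 probes were not tested, being detected on 0 and 2 of the 8 arrays. The motors Kif11, which pushes the spindle poles apart, Kif2c, which depolymerises microtubules at centromeres, and Kif4, a chromokinesin, differed by 0.01, 0.07 and -0.07 on their brightest probes, each with SE 0.14. A dimmer Kif4 probe, ILMN_2747641, read 4.94 on DKO 1 and 6.21, 6.18 and 6.55 on the other DKO arrays, against 5.84, 5.46, 6.29 and 5.62 on the control arrays. DKO 1 was thus the lowest of the 8 arrays, and this probe did not pass.

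None of the genes of the kinetochore, the checkpoint, the chromosomal passenger complex, condensin or the central spindle passed the limma threshold on any probe. By brightest probe these 5 groups held 16 tested genes, of which 1, Spc24, had an unadjusted limma p under 0.05. The groups are put together here because none of their genes passed. The count of 0 was thus fixed by the grouping, and is no result beside the 24.3% of all tested genes called. Spc24, a subunit of the Ndc80 complex that grips microtubules, came nearest. Its brighter probe read 10.96, 10.77, 10.11 and 10.05 on the DKO arrays, against 9.93, 9.93, 9.82 and 9.80 on the control arrays. The groups did not overlap, but DKO 1 and DKO 2 carried most of the gap, and the difference of 0.60 (SE 0.20, 95% interval 0.15 to 1.05) had a limma adjusted p of 0.0564. It was past the threshold in 8 of 19 alternative settings, among them no background correction (adjusted p = 0.0374), the authors' processed values (0.0422) and the replicate number as a block (0.0437). Without DKO 1 and DKO 2, the 2 arrays with the fewest detected probes, it did not pass. The other Spc24 probe differed by 0.23 (SE 0.25). Its partners in the complex differed by 0.21 for Ndc80 (SE 0.18) and -0.18 for Spc25 (SE 0.16), and Cenpa, the histone H3 variant that marks centromeres, by 0.04 (SE 0.13).

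The checkpoint genes did not pass, and their intervals as quantile-normalized stayed within 2-fold. Mad2l1, which holds Cdc20 inactive until all chromosomes are attached, averaged 10.65 ± 0.21 on the DKO arrays and 10.74 ± 0.10 on the control arrays (SD, n = 4 each). Bub1b, its partner in that inhibitory complex, differed by -0.08 (SE 0.16), Bub3 by 0.20 (SE 0.15) and the kinase gene Ttk by -0.26 (SE 0.19), the last with 1 of 4 DKO arrays at which its probe was not detected. In the chromosomal passenger complex, which corrects faulty attachments, Birc5 (survivin) differed by 0.09 on its brightest probe and by 0.27 and 0.36 on its other probes, and the scaffold gene Incenp by 0.11 (SE 0.17), with none past the threshold.

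The condensin, topoisomerase and cytokinesis genes had differences below 0 on their brightest probes, and none passed. The median over all tested genes was also below 0, at -0.03, and the shared direction is no result about these genes. The differences of Anln and Prc1 kept this direction in 16 of 19 alternative settings, with values up to 0.14 and 0.09. Ncaph, the subunit that closes the condensin I ring, read 9.29, 9.38, 9.39 and 9.39 on the DKO arrays, against 9.47, 9.56, 9.81 and 9.46 on the control arrays. The groups did not overlap, yet the gap was narrow and the difference of -0.21 (SE 0.13) had a limma adjusted p of 0.250. Ncapd2 differed by -0.25 (SE 0.16) on its brightest probe and by 0.01 and 0.17 on its other probes. Top2a, the topoisomerase that untangles sister chromatids, differed by -0.18 (SE 0.19). Of the cytokinesis genes, the central spindle motor gene Kif23 differed by -0.20 (SE 0.16), the contractile ring scaffold Anln by -0.06 (SE 0.15) and the microtubule bundler Prc1 by -0.04 (SE 0.14). Kif23 was past the threshold only with arrays aligned by medians (difference -0.72, adjusted p = 0.0491), a difference of -0.32 relative to the median of all probes there.

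**Figure D3:**
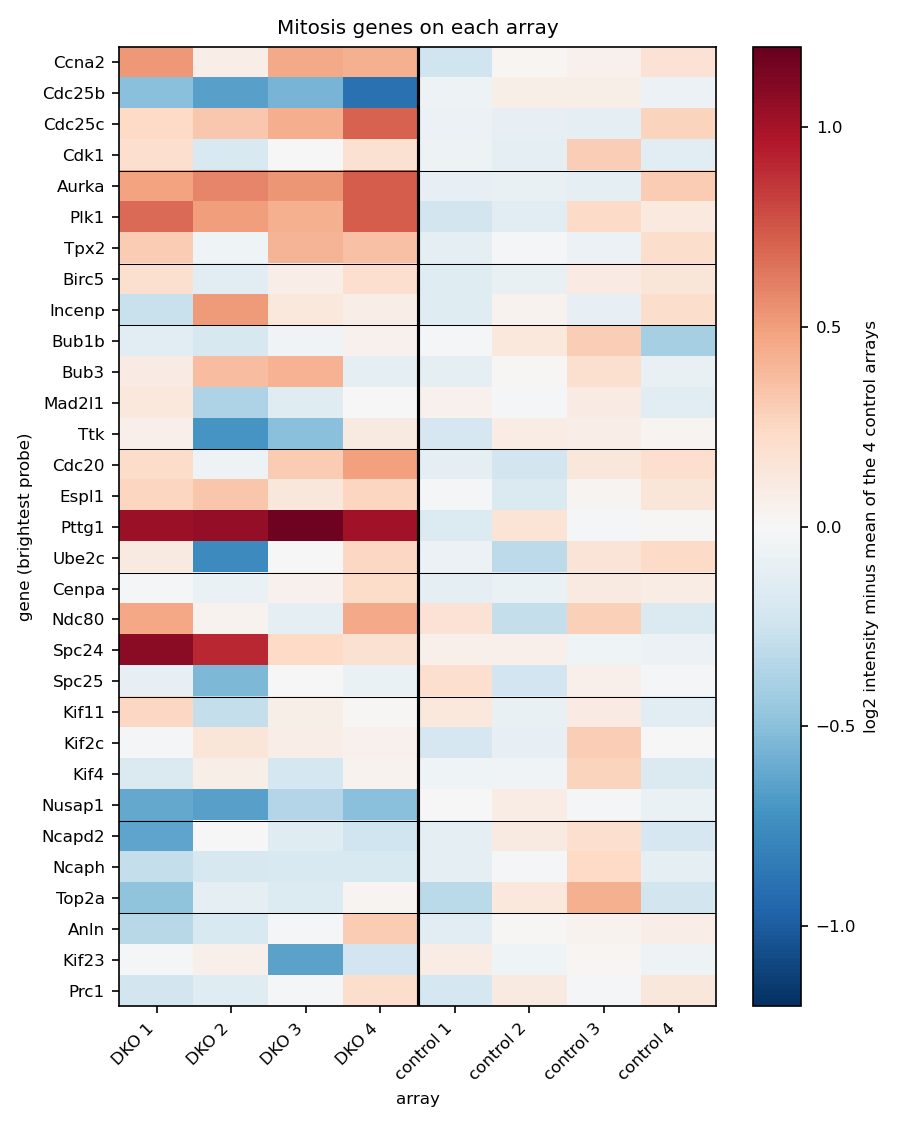
Normalized log2 intensity of each of the 31 tested mitosis genes (rows, brightest probe, grouped by role) on each array (columns, DKO left of control), as the difference from the mean of the 4 control arrays. Pttg1, Aurka and Plk1 are red and Cdc25b and Nusap1 blue on all 4 DKO arrays, Spc24 is red mainly on DKO 1 and DKO 2, and most other rows are pale on both sides.

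Array by array, the members of the DKO and control groups overlapped. Set against the control mean of each gene, their median stood at 0.10, -0.07, 0.01 and 0.18 on DKO 1 to 4, and at -0.10, -0.03, 0.10 and 0.01 on control 1 to 4. In this measure DKO 4 was the highest and control 1 the lowest. The number of the 31 genes above their control mean was 17, 14, 16 and 23 on the DKO arrays and 7, 13, 23 and 16 on the control arrays.

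Beyond the members, 91 other mitosis genes were tested, from lists chosen for their roles. By brightest probe 5 rose, 7 fell and 79 did not pass, 13.2% called against 24.3% of all tested genes, with a median difference of 0.01. The 5 that rose were Gtse1, Cdca3, Mybl2, E2f3 and E2f4. Gtse1, a microtubule-associated protein of G2 phase that also restrains p53, rose on both of its tested probes, 1.84-fold on the brighter (limma log2 difference 0.88, SE 0.16, adjusted p = 0.00305) and 2.26-fold on the other (1.17, SE 0.20). Cdca3, a trigger of mitotic entry, rose 1.32-fold on the brighter of its probes (0.40, SE 0.12) and differed by 0.15 on the dimmer. Mybl2, the transcription factor that binds the MuvB complex at G2 and M phase promoters, rose 1.47-fold on its brightest probe (0.55, SE 0.15), while Foxm1, which joins the same complex later, differed by 0.06 and 0.04 on its 2 probes and did not pass. E2f3 and E2f4, E2F factors of the G1 to S transition and of quiescence, rose by 0.64 and 0.55 on the log2 scale, and Rbl1, the p107 pocket protein that binds E2F factors, fell by 0.50. Kif18b, Melk and Ncapg2 also rose, on a dimmer probe only. With arrays aligned by medians, 0 of these lists' genes were higher and 14 were lower, where 1.36% of all tested probes were called higher and 21.5% lower. The number that rose was 1 without DKO 4, control 1 or control 2 and 2 without control 3. The number that fell was 4 without control 1, control 3 or control 4 and 3 without control 2. Of all tested probes, 6.46% were called higher and 7.59% lower without control 2, against 10.4% and 12.4% as reported.

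The other 6 that fell were Stmn1, Smc1a, Mis18a, Cenpt, Cenpn and Anapc13. Stmn1, which destabilises microtubules, fell 1.78-fold (limma log2 difference -0.83, SE 0.13, adjusted p = 0.00163). Smc1a, a core cohesin subunit, fell 1.48-fold and 1.46-fold on 2 probes (adjusted p = 0.0102 and 0.0248) and did not pass on its other 2 tested probes. Among 25 other kinetochore and checkpoint genes, 0 were higher and 3 lower, 12% called, where 10.1% of all tested genes were called higher and 14.3% lower. At an unadjusted limma p under 0.05, 0 were higher and 4 lower. The median difference of the 25 was 0.02, with 14 above 0 and 11 below, so the list did not fall as a whole. The 3 called were Mis18a, which helps to load Cenpa, and the centromere genes Cenpt and Cenpn, with differences of -0.49, -0.48 and -0.44. Of 9 subunits of the anaphase promoting complex, 1, Anapc13, fell 1.54-fold (adjusted p = 0.0334), while Cdc27 differed by 0.53 (adjusted p = 0.0574). Of the 11 other entry and exit regulators 0 were called by brightest probe and 4 had an unadjusted p under 0.05, the nearest being Ccnf with 0.69 (adjusted p = 0.0527), Ube2s with 0.65 (0.0571) and Pkmyt1 with -0.50 (0.0574).

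**Figure D4:**
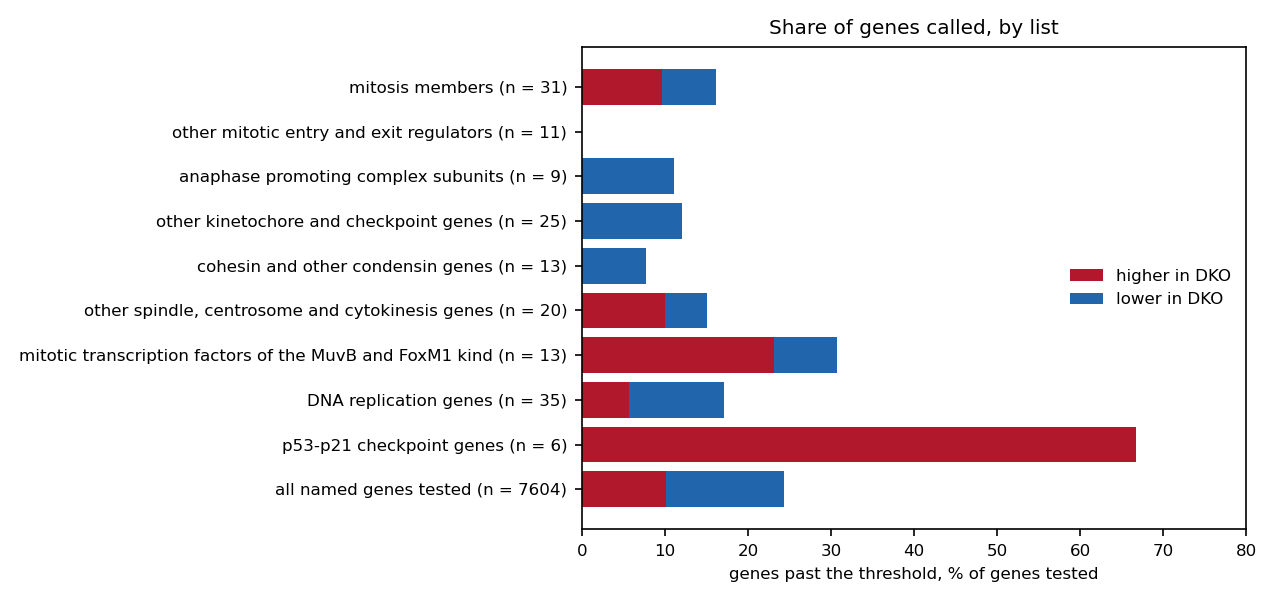
Percentage of tested genes past the threshold (x axis, from 0) in each list, by brightest probe, with the part higher in DKO in red and the part lower in blue. The mitosis members stand at 16.1% and all named genes at 24.3%, and the p53-p21 list, with 4 of 6 genes higher, has the longest bar.

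For comparison, 35 genes of DNA replication were counted in the same way, with 2 higher, 4 lower and 29 not past the threshold, 17.1% called. Rrm2, a subunit of ribonucleotide reductase, rose 1.79-fold on its brightest probe (adjusted p = 0.00376). Lig1 and Pold1, the ligase and polymerase of the lagging strand, fell 1.68-fold and 1.60-fold. Orc2, a subunit of the origin recognition complex, rose 1.47-fold on a probe detected on 3 DKO arrays and 1 control array. Without any single array other than DKO 2 the number higher was 1, and without control 1 or control 2 the number lower was 2. Of 6 genes of the p53-p21 checkpoint, which acts on the same cyclin-dependent kinases, 4 rose, Cdkn1a, Ccng1, Gadd45a and Mdm2, and 0 fell, with 1 at an unadjusted p under 0.05 below 0 by limma. Cdkn1a, which encodes the Cdk inhibitor p21, read 8.64, 10.17, 9.97 and 8.80 on the DKO arrays, against 7.14, 6.75, 6.68 and 6.70 on the control arrays (limma log2 difference 2.58, SE 0.32, adjusted p = 0.000473). The groups did not overlap, and within the DKO group DKO 2 and DKO 3 lay above DKO 1 and DKO 4. With arrays aligned by medians, 1 gene of this list was higher and 1 lower. No difference between these lists and the members was tested.

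**Figure D5:**
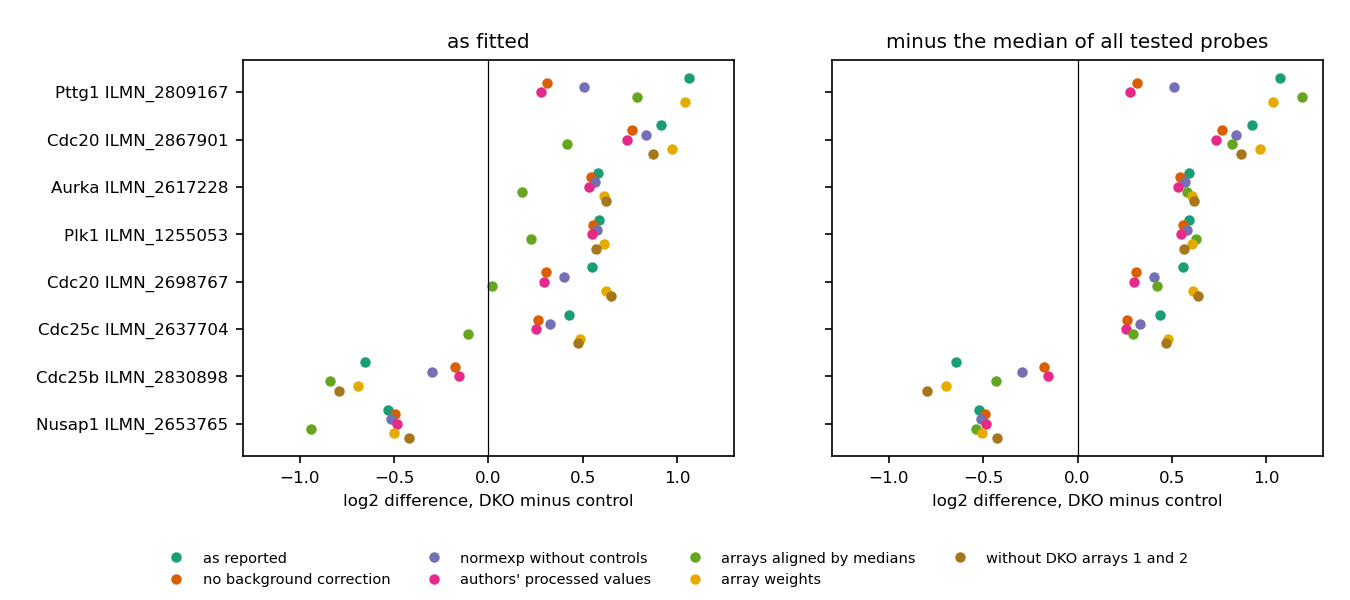
Log2 difference, DKO minus control, of the 8 called mitosis probes (rows) as reported and in 6 alternative settings (colours), as fitted at left and minus the median of all tested probes at right. As fitted, the arrays aligned by medians (green) lie to the left of the other settings for Cdc20, Aurka, Plk1 and Cdc25c, with Cdc25c below 0, and relative to the median of all probes every setting keeps the reported direction for all 8 probes.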

How the data were processed

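RNA was made into biotinylated cRNA for 1-colour BeadArrays, per the labels' protocols. The submitters' processing notes name GenomeStudio and give neither its version nor its role. The deposited non-normalized table holds 1 linear bead intensity per probe and array, with a detection p-value beside it per the file headers. The authors' processed table holds log2 values, quantile-normalized and centred per probe as judged from the intensities (r from 0.9991 to 0.9995 over array differences, column medians from -0.0044 to -0.0005), with the centre unknown, and was used as an alternative.

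Of the probes, 23978 had 1 symbol in the platform annotation, 0 had several and 1719 had none. RefSeq identifiers changed 0 symbols. The neqc function of limma 3.58.1, run in R 4.3.3 with an offset of 16, normalized the intensities. It estimated the background from the detection p-values, with no control probes given to it. The normalized values were then compared with lmFit and eBayes, without covariates, with Benjamini-Hochberg adjustment over all 10856 tested probes. A gene stands by its tested probe with the highest mean. The summed marker signal is the linear normalized value above the offset. The limma fit was also run on simulated normalized values with added changes. That run did not cover background correction or normalization.

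The members, lists, tests and the rule for named genes were chosen with earlier results of these data known. Every member is accounted for, arrays are given singly for called members and those nearest the threshold, and up to 4 genes with the smallest p are named per other list. Foxm1 and the dimmer Kif4 probe were chosen after their values were seen. Alternatives were other background corrections, alignment by medians, the authors' values, other detection filters, variance models, array weights, the replicate block, a 1.5-fold minimum, and leaving out each array. Leaving out DKO 1 and DKO 2 together was chosen after seeing the data. The files name no slide, so that BeadChip effects could not be fitted.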

Additional observations from a re-analysis of the deposited data

Results flagged for a closer look

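In 7 of 84 groups of 4 arrays checked, 1 array stood far from the other 3 by Dixon's criterion, which chance gives in about 1 of 20 groups. Among the probes of the mitosis genes, control 4 read 10.49 for Aurka, above 10.07 to 10.10 on the other control arrays. The same array read 7.76 for the brightest Cdc25c probe, above 7.38 to 7.42. Cdk1 read 10.65 on control 3, above 10.22 to 10.29. DKO 1 read 9.29 for Ncaph, below 9.38 to 9.39 on the other DKO arrays. Outside the members, Cdkn1a (ILMN_2634083) read 7.14 on control 1, above 6.68 to 6.75, and Nabp2 (ILMN_2837156) read 8.13 on control 3, below 8.96 to 9.10. The mean raw intensity of control 2 was 736, above 605 to 620 on the other control arrays.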

How the results depend on the processing

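Of 6 member probes that rose and 2 that fell, alignment of arrays by medians left 1 higher, the authors' processed values, no background correction and probes detected on all arrays each gave 8 higher and 1 lower, array weights gave 9 higher and 2 lower, and leaving out DKO 1 and DKO 2 gave 5 higher and 1 lower. A minimum change of 1.5-fold left 0 higher and 0 lower, where 2.35% of all tested probes were called. In that limma test 2 of the 43 member probes had an unadjusted p under 0.05. Leaving out single arrays gave 3 to 8 higher, with 3 without control 2, and 2 lower in each case. The share of members called was 11.6% without control 2 and 23.3% without DKO 2, beside 14.0% and 21.8% of all probes. Aligned by medians, the median of the members was -0.44, -0.03 relative to all probes, and Cdc25c ILMN_2637704 turned to -0.11. Without single arrays that median ranged from 0.005 to 0.08.

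For the other mitosis genes, the number higher was 9 without background correction, with normexp run without the detection p-values and with a trended, robust variance. It was 8 with the authors' processed values, 3 with no filter on dim probes and 11 with probes detected on all arrays. It was 0 aligned by medians or with a 1.5-fold minimum, where lower genes were 14 and 0. Single arrays left out gave 1 to 7 higher and 3 to 7 lower. DNA replication genes had 1 higher with normexp run without the detection p-values, probes detected on all arrays or without DKO 1 and 2 (then 2 lower). They had 0 higher and 7 lower aligned by medians and 0 and 0 with a 1.5-fold minimum. Without single arrays, 1 to 3 of them were higher and 2 to 5 lower. The p53-p21 genes had 1 higher aligned by medians or with a 1.5-fold minimum, 1 lower aligned by medians, with array weights or without DKO 1 and 2, and 4 higher and 0 to 1 lower without single arrays, with 1 lower without DKO 1. The dimmer Nabp2 probe passed at -0.82 aligned by medians, -0.80 with array weights and -1.04 without DKO 1 and 2. A higher minimum lowers the counts by construction, and other causes were not tested.

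Same-numbered DKO and control samples had correlations of their deviations of 0.19, 0.03, -0.11 and 0.20. Those of DKO 1 and DKO 4 were the highest of all pairs. DKO 2 correlated best with control 3 (0.12) and DKO 3 with control 2 (0.09). Whether the numbers pair the samples is thus not settled, and the reported fit did not pair them. The replicate number as a block gave 8 higher and 2 lower member probes, 23.3% called against 22.3% of all tested probes. Dim probes limit the size of a change: Pttg1 and Cdc25b lie near background in 1 group, where the background correction sets the fold.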
